A study of Mus musculus with 8 samples.

Results

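The genes described here are 9 members of the tumour necrosis factor (TNF) superfamily that CD4+ T cells can express. They are 5 ligands, Tnfsf11 (RANKL), Tnfsf8 (CD30 ligand), Tnfsf14 (LIGHT), Cd40lg (CD40 ligand) and Fasl (Fas ligand), and 4 receptors, Tnfrsf9 (CD137), Tnfrsf4 (OX40), Tnfrsf18 (GITR) and Tnfrsf1b (TNF receptor type II). They were picked by name, with earlier results of these data known, from 37411 genes in a table of raw read counts. The filter on low counts, which left 10000 genes for testing, was passed by 9 of 9. RNA came from about 10000 CD4+ effector T cells per sample, sorted by a congenic marker 6 weeks after transfer into mice. All hosts were Rag1-/- on the C57BL/6 background and either lacked (Slc10a2 -/-, here Asbt-/-) or had (Slc10a2 +/+, here Asbt+/+) the ileal bile acid transporter. The transferred cells carried an LMPd retrovirus with a short hairpin against the drug transporter Mdr1 (shMdr1) or a control hairpin against CD8 (shCD8), and were taken from small intestine lamina propria or spleen. Each of the 8 combinations of tissue, hairpin and host had 1 library, so each level of a factor had 4. The hairpin was read from the sample titles, because the retrovirus field names shMdr1 for every library. Rag1-/- hosts lack T and B cells of their own but keep myeloid and innate lymphoid cells. The labels do not give the age or sex of the hosts or say which libraries came from separate animals, so p-values reflect only how much these libraries varied, part of which may be technical.

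TNF superfamily ligands are mostly trimeric membrane proteins that cluster their receptors on a neighbouring cell. Most receptors of the family recruit TRAF adaptor proteins and activate NF-kB, while Fas carries a death domain and can start apoptosis. On CD4+ T cells, antigen receptor signalling induces CD40 ligand, RANKL and Fas ligand, which act on antigen-presenting, stromal and other target cells, and it also induces OX40, CD137 and GITR, which sustain division and survival. Regulatory T cells express GITR, OX40, CD137 and TNF receptor type II at high levels.

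The libraries held 1685225 to 2767105 counts. The small intestine shCD8 Asbt+/+ library had counts for 8456 genes, against 11345 to 13184 in the other 7. Abcb1a, which encodes Mdr1, was lower with shMdr1 in 3 of 4 matched pairs. In the small intestine Asbt+/+ pair it was not, at 14.8 CPM (shMdr1) and 8.28 CPM (shCD8) on only 23 and 21 reads. Cd8a, a CD8 gene, had 150 counts (shMdr1) and 0 (shCD8) in that pair, and 70 and 57 in small intestine of Asbt-/- hosts. Its spleen counts were 31 (shMdr1) and 7 (shCD8) in Asbt+/+ hosts, and 0 and 0 in Asbt-/- hosts. Results for tissue, hairpin and host are therefore also given without both small intestine Asbt+/+ libraries. In that fit the tissue difference rests on Asbt-/- hosts alone and the host difference on spleen alone. Cd4 stood at 134 to 234 CPM in small intestine and 108 to 139 CPM in spleen, and Cd3e was detected in every library. Foxp3, which defines regulatory T cells, had a count in 7 of 8 libraries (10 to 113 counts). Ncr1 of natural killer cells had no count in any library, but the other 7 of 8 natural killer and innate lymphoid markers were detected in both tissues. Levels below are in CPM, counts scaled to a common library total after TMM correction, with 4 libraries per tissue, hairpin or host level.

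Among the 9 genes, levels per kilobase of exon differed widely. In small intestine, Tnfrsf4 (212 ± 53.0 CPM per kb, mean ± SD, n = 4), Cd40lg (197 ± 90.7), Tnfsf8 (197 ± 63.2) and Tnfrsf18 (141 ± 16.8) were the highest. Tnfsf11 (73.0 ± 35.1), Fasl (54.2 ± 24.9), Tnfrsf9 (50.2 ± 37.2), Tnfrsf1b (28.0 ± 4.81) and Tnfsf14 (26.6 ± 19.0) followed. Each neighbour in this order overlapped the next over the 4 libraries. In spleen, Tnfsf8 (126 ± 38.1), Cd40lg (119 ± 30.9), Tnfrsf4 (94.1 ± 33.9) and Tnfrsf18 (84.5 ± 23.2) again led. The lowest library among these 4 genes, at 55.4 CPM per kb for Tnfrsf4, lay above the highest among the other 5, at 29.6 for Tnfsf11. Tnfrsf9 (8.90 ± 4.74) and Tnfrsf1b (8.25 ± 3.67) were the lowest in spleen.

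**Figure D1:**
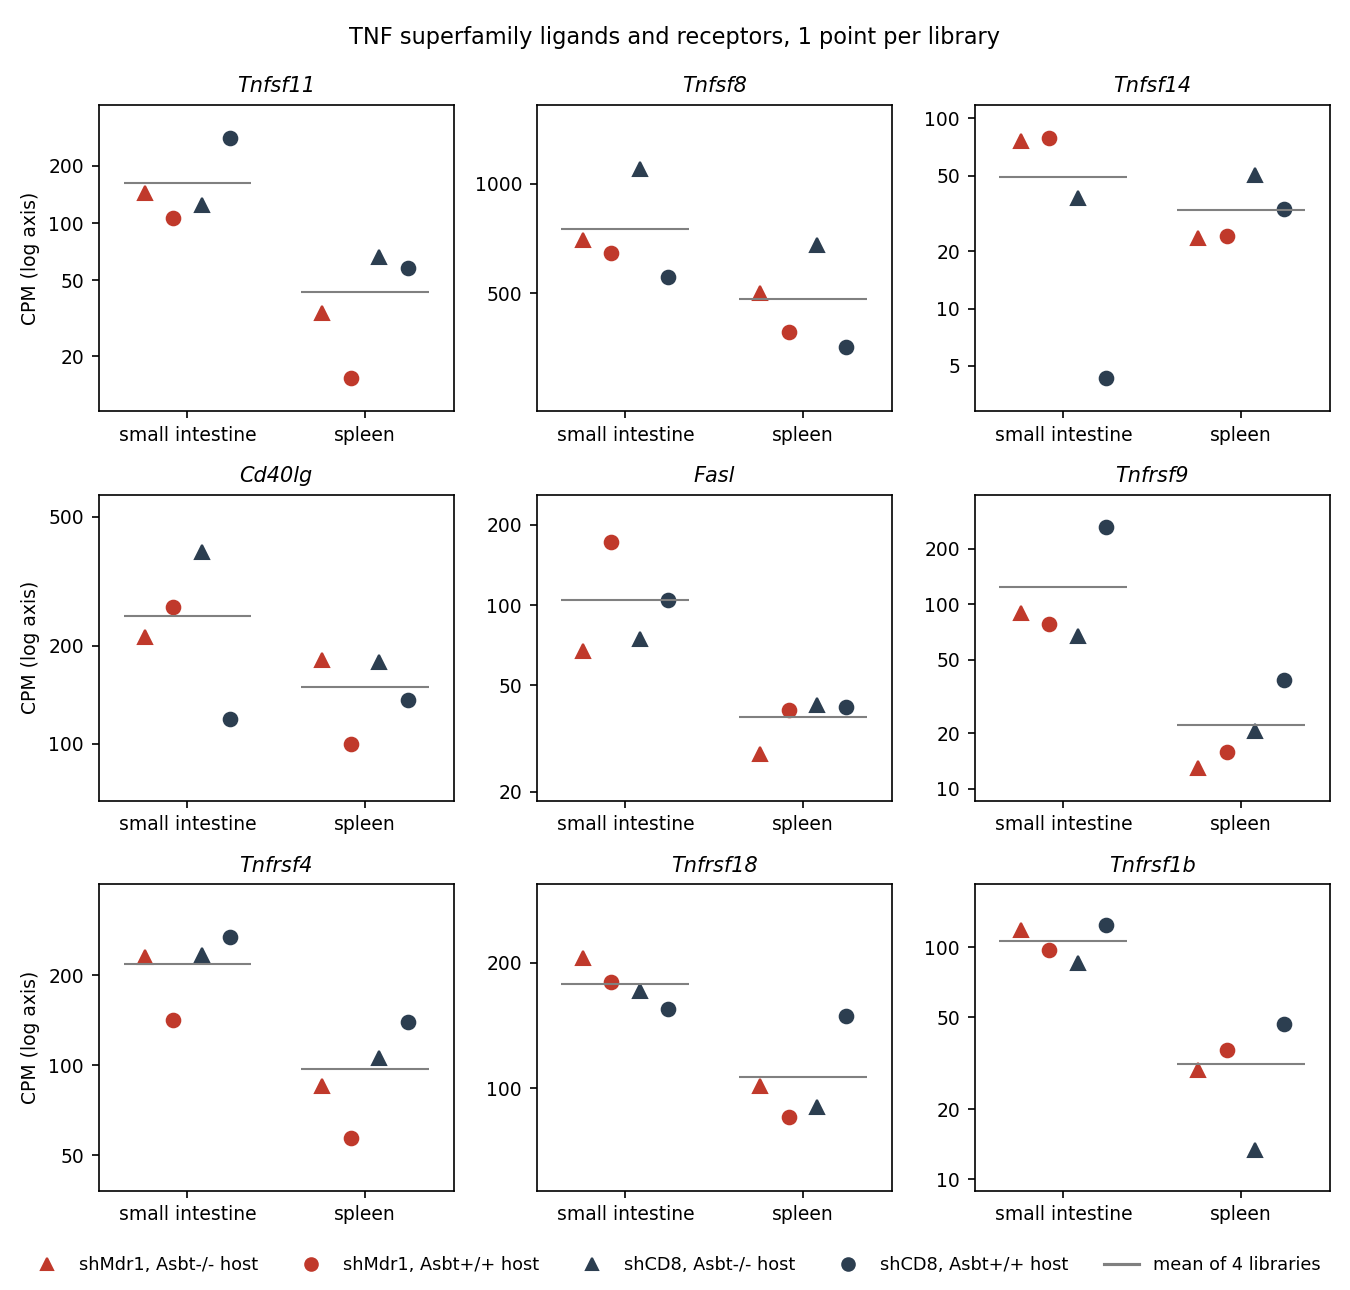
CPM of each of the 9 genes (log axis) in each of the 8 libraries, small intestine left of spleen, with the hairpin and host of each library marked. Tnfsf11, Fasl and the 4 receptors lie higher in every small intestine library than in any spleen library, while Tnfsf14 spans 4.34 to 78.3 CPM within small intestine.

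Setting small intestine against spleen asks how transferred cells from a bile acid-exposed site compare with those in lymphoid tissue. All 9 genes had a log2 fold change above 0, against 41.1% of all tested genes, and their median was 1.21, against -0.17 over all tested genes. Of the 9, Tnfsf11 and Tnfrsf9 passed the edgeR quasi-likelihood test as higher in small intestine, where 0.51% of tested genes did so. In 6 of the 9, the 4 small intestine libraries all lay above the 4 spleen libraries, as in 3.39% of tested genes. These were Tnfsf11, Fasl and the 4 receptors. In 7 of 9 the small intestine library was higher in all 4 matched pairs, as in 8.11% of tested genes. Because the 9 genes were chosen with earlier results of these data known, these shares are a description and not a test. In such bulk RNA, fewer cells of a type and less RNA per cell cannot be told apart.

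Tnfsf11 encodes RANKL, which acts through RANK on osteoclast precursors, dendritic cells and the intestinal epithelium over lymphoid follicles. Small intestine cells of Asbt-/- hosts held 144 CPM (shMdr1) and 125 CPM (shCD8), and those of Asbt+/+ hosts 106 CPM (shMdr1) and 279 CPM (shCD8). Spleen cells of Asbt-/- hosts held 33.9 CPM (shMdr1) and 66.1 CPM (shCD8), and those of Asbt+/+ hosts 15.4 CPM (shMdr1) and 58.0 CPM (shCD8). The tissues did not overlap, and the highest small intestine library was the shCD8 Asbt+/+ one. The means of 163 ± 78.6 CPM in small intestine and 43.3 ± 23.1 CPM in spleen gave a fitted 4.11-fold difference (log2 2.04 ± 0.38 SE, edgeR adjusted p = 0.0373).

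Fasl encodes Fas ligand, which kills Fas-bearing targets and limits activated T cells. In small intestine cells its level was 67.4 CPM (shMdr1) and 74.6 CPM (shCD8) from Asbt-/- hosts, and 173 CPM (shMdr1) and 105 CPM (shCD8) from Asbt+/+ hosts. In spleen cells it was 27.7 CPM (shMdr1) and 42.1 CPM (shCD8) from Asbt-/- hosts, and 40.4 CPM (shMdr1) and 41.7 CPM (shCD8) from Asbt+/+ hosts. The tissues did not overlap, but the 2.62-fold difference did not pass (log2 1.39 ± 0.34, edgeR adjusted p = 0.135).

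Tnfsf8, whose product binds CD30, was the member with the most counts. Cells from small intestine held 703 CPM (shMdr1) and 1100.2 CPM (shCD8) in Asbt-/- hosts, and 644 CPM (shMdr1) and 556 CPM (shCD8) in Asbt+/+ hosts. Cells from spleen held 500.4 CPM (shMdr1) and 678 CPM (shCD8) in Asbt-/- hosts, and 391.7 CPM (shMdr1) and 356 CPM (shCD8) in Asbt+/+ hosts. The tissues overlapped, although small intestine was higher in all 4 pairs, by 1.41 to 1.64 times. The test was not passed (log2 0.65 ± 0.25, edgeR adjusted p = 0.469).

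Cd40lg, whose product licenses dendritic cells and B cells through CD40, reached 213 CPM (shMdr1) and 391 CPM (shCD8) in the small intestine of Asbt-/- hosts. In Asbt+/+ hosts its small intestine levels were 264 CPM (shMdr1) and 119 CPM (shCD8). The 4 spleen libraries ranged from 99.9 to 181 CPM, and among the small intestine libraries the shCD8 Asbt+/+ one alone fell within that range. Small intestine was higher in 3 of 4 pairs and the test was not passed (log2 0.72 ± 0.31, edgeR adjusted p = 0.569).

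Tnfsf14 encodes LIGHT, a ligand of HVEM and the lymphotoxin beta receptor. Its small intestine levels were 75.7 CPM (shMdr1) and 38.3 CPM (shCD8) in Asbt-/- hosts, and 78.3 CPM (shMdr1) and 4.34 CPM (shCD8) in Asbt+/+ hosts. Its spleen levels were 23.4 CPM (shMdr1) and 50.3 CPM (shCD8) in Asbt-/- hosts, and 24.1 CPM (shMdr1) and 33.5 CPM (shCD8) in Asbt+/+ hosts. The low value of 4.34 CPM rests on 11 counts and comes from the library with the fewest detected genes. Both shMdr1 pairs were higher in small intestine and both shCD8 pairs were lower, so the fitted tissue difference was small and uncertain (log2 0.28 ± 0.76, edgeR adjusted p = 0.9504).

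Among the receptors, Tnfrsf9 (CD137), a costimulatory receptor that marks recently activated T cells, had the largest tissue difference of the 9 genes. Small intestine cells of Asbt-/- hosts held 90.3 CPM (shMdr1) and 67.8 CPM (shCD8), and those of Asbt+/+ hosts 78.3 CPM (shMdr1) and 263 CPM (shCD8). Spleen cells of Asbt-/- hosts held 12.9 CPM (shMdr1) and 20.6 CPM (shCD8), and those of Asbt+/+ hosts 15.8 CPM (shMdr1) and 39.1 CPM (shCD8). The tissues did not overlap. Of the small intestine libraries 3 lay close together and the shCD8 Asbt+/+ one stood above them. The means of 125 ± 92.4 CPM in small intestine and 22.1 ± 11.8 CPM in spleen gave a fitted 5.60-fold difference (log2 2.49 ± 0.39, edgeR adjusted p = 0.0186).

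Promoter sequences are shown for the 2 genes that passed, Tnfrsf9 and Tnfsf11, and for Tnfsf14, whose tissue values split by hairpin. Each is the 250 bases before the RefSeq transcription start on build GRCm38.p6, written on the strand of the gene. RefSeq entries were matched for 8 of the 9 genes, Cd40lg being the one without, and Tnfrsf9 has 2 starts. The second is shown because it holds AP-1 and NF-kB matches, while the first holds neither. Tnfrsf9 lies at chr4:150927749-150927998 on the plus strand, Tnfsf11 at chr14:78308044-78308293 on the minus strand and Tnfsf14 at chr17:57194182-57194431 on the minus strand. Capitals mark letters that match the AP-1 motif (TGANTCA) or the NF-kB motif, searched on both strands.
Tnfrsf9: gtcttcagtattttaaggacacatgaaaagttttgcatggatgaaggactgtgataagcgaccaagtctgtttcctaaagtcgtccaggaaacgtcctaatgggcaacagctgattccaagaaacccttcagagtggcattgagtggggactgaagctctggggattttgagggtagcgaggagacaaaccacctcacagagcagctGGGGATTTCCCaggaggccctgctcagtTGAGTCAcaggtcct
Tnfsf11: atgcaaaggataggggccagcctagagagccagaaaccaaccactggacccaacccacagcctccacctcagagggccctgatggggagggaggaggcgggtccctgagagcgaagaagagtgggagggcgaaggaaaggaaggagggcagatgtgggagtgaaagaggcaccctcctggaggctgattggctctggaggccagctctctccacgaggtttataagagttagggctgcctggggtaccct
Tnfsf14: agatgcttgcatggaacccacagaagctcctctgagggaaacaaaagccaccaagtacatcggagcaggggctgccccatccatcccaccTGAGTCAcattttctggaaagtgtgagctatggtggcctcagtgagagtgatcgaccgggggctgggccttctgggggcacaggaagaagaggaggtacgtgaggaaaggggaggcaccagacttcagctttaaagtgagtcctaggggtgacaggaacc
The second Tnfrsf9 start had an AP-1 match TGAGTCA at bases -15 to -9 and a pair of NF-kB matches, GGGGATTTCC and GGGATTTCCC, that overlap each other at bases -43 to -33. Tnfsf14 had TGAGTCA at bases -160 to -154, and Tnfsf11 had none of the motifs searched in this window. Of 32851 promoter entries of this length, 6.749% held TGANTCA and 3.899% held the NF-kB motif. The NFAT core GGAAAA, which 20.43% of entries held, was matched in Fasl, in Tnfrsf18 and at the first start of Tnfrsf9. The cAMP response element TGACGTCA (1.546% of entries) and the NR4A element AAAGGTCA (1.336%) were found in none of the 8 genes. A match is a description of letters and not of binding.

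Tnfrsf4 encodes OX40, which prolongs the survival of activated CD4+ T cells. In small intestine cells its level was 229.8 CPM (shMdr1) and 235 CPM (shCD8) from Asbt-/- hosts, and 141 CPM (shMdr1) and 269 CPM (shCD8) from Asbt+/+ hosts. In spleen cells it was 84.9 CPM (shMdr1) and 106 CPM (shCD8) from Asbt-/- hosts, and 57.0 CPM (shMdr1) and 139.7 CPM (shCD8) from Asbt+/+ hosts. The tissues nearly met, the lowest small intestine library being shMdr1 Asbt+/+ and the highest spleen library shCD8 Asbt+/+, and the 2.31-fold difference did not pass (log2 1.21 ± 0.27, edgeR adjusted p = 0.104).

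Tnfrsf18 encodes GITR and had the narrowest range of the 9 genes over the 8 libraries, as a ratio of highest to lowest. It ranged from 155 to 206 CPM in small intestine and from 85.3 to 149 CPM in spleen. The tissues did not overlap, the shCD8 Asbt+/+ pair being nearly equal at 155 CPM in small intestine and 149 CPM in spleen, and the test was not passed (log2 0.75 ± 0.27, edgeR adjusted p = 0.434). Its exons overlap the antisense gene Gm16008, which had 78 counts in all, and the strand setting of the counting is not given in the sources used here.

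Tnfrsf1b encodes TNF receptor type II, the receptor that membrane-bound TNF engages best. Cells from small intestine held 119 CPM (shMdr1) and 85.8 CPM (shCD8) in Asbt-/- hosts, and 97.6 CPM (shMdr1) and 125 CPM (shCD8) in Asbt+/+ hosts. Cells from spleen held 29.5 CPM (shMdr1) and 13.4 CPM (shCD8) in Asbt-/- hosts, and 36.2 CPM (shMdr1) and 46.9 CPM (shCD8) in Asbt+/+ hosts. The tissues did not overlap, and the 3.58-fold difference lay just outside the threshold (log2 1.84 ± 0.37, edgeR adjusted p = 0.0621).

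**Figure D2:**
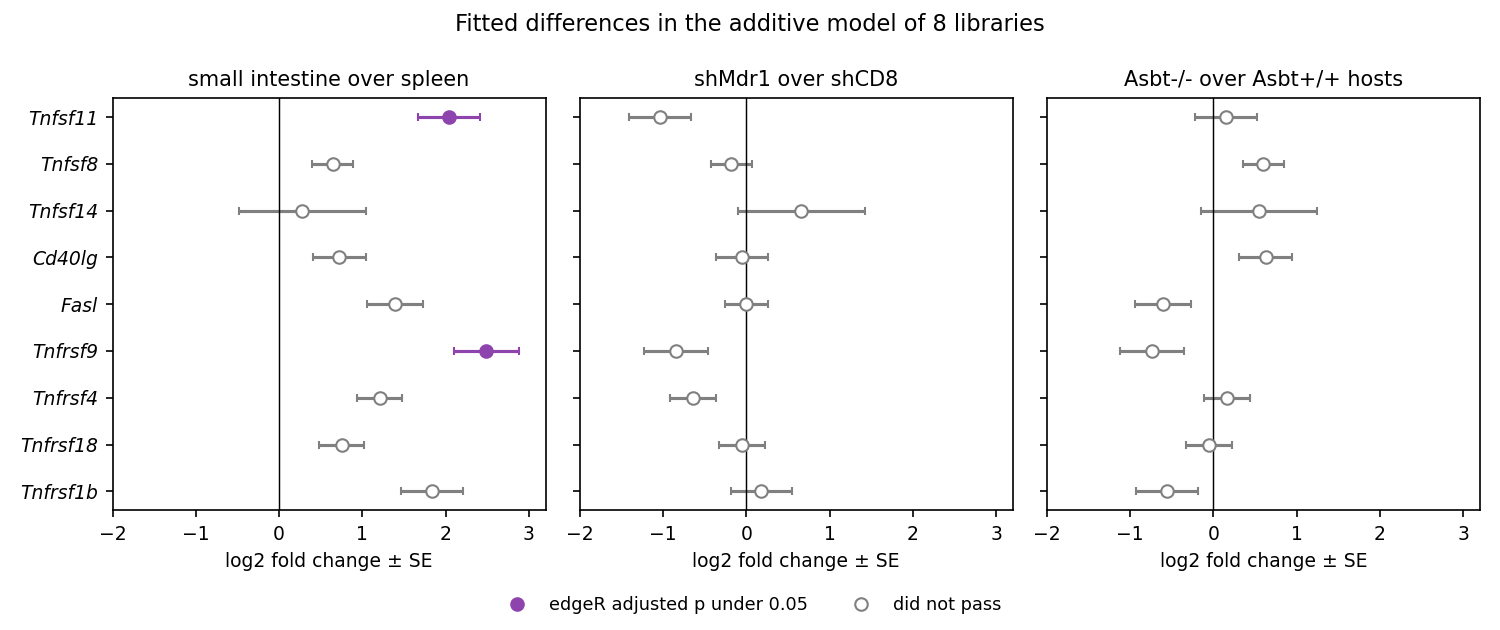
Fitted log2 fold changes (points) with their approximate SE (bars) for the 9 genes in the comparisons of small intestine with spleen, shMdr1 with shCD8 and Asbt-/- with Asbt+/+. All 9 tissue values lie above 0, and the filled points mark Tnfsf11 and Tnfrsf9, the only values past the edgeR threshold.

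The 2 calls depended on the libraries in the fit. Without both small intestine Asbt+/+ libraries, Tnfsf11 stood at 1.58 (adjusted p = 0.207) and Tnfrsf9 at 2.31 (adjusted p = 0.0921) in edgeR. These 2 values compare the tissues in Asbt-/- hosts only. Leaving out single libraries kept either call only without small intestine shCD8 Asbt-/- or small intestine shCD8 Asbt+/+. Without small intestine shCD8 Asbt+/+, Fasl (adjusted p = 0.0492) and Tnfrsf1b (adjusted p = 0.0391) also passed in edgeR, and DESeq2 on all 8 libraries called Fasl, Tnfrsf4 and Tnfrsf1b besides Tnfsf11 and Tnfrsf9.

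Summed levels of cell type markers in each tissue follow, and their part in these differences was not tested. The summed level of the 12 CD4 T cell markers, all detected in both tissues, was 5935 to 10576 CPM in small intestine and 6513 to 7601 CPM in spleen. With library sizes taken from these 12 genes, which moved the tissue median of all genes by -0.30, Tnfsf11 stood at 1.69 (adjusted p = 0.0921) and Tnfrsf9 at 2.12 (adjusted p = 0.0554) in edgeR. Per 1000 counts of these markers, Tnfrsf9, Fasl and Tnfrsf1b kept the tissues apart and the other 6 genes overlapped. The 10 regulatory T cell markers, all detected in both tissues, summed to 1369 to 2382 CPM in small intestine and 569 to 979 CPM in spleen. Ctla4 alone averaged 1224 CPM of it in small intestine and 349 CPM in spleen. Of the 9 markers tested 5 lay above and 4 below 0 (median 0.11), with Il2ra at 1.87, Itgae at 1.43, Ikzf2 at -0.17 and Nrp1 at -2.36. Foxp3 itself ranged from 0 to 44.6 CPM in small intestine and from 4.99 to 28.8 CPM in spleen, overlapping between them. The 12 myeloid and antigen-presenting markers summed to 1119 to 1605 CPM in small intestine, with 11 detected, and to 611 to 952 CPM in spleen, with 12 detected. Cd74 alone averaged 324 CPM of it in small intestine and 68.3 CPM in spleen. Of the 10 tested, 8 lay above 0 and 2, Cst3 and Adgre1, below (median 0.73), and Cd74 and H2-Aa passed in edgeR. Neutrophil markers were lower in small intestine, at 10.7 to 193 CPM (8 of 9 detected), than in spleen, at 859 to 7572 CPM (9 of 9). Erythroid markers (7 of 7 in both) summed to 38.3 to 106 CPM in small intestine and 1097 to 41547 CPM in spleen. The CD8 T cell markers Cd8a and Cd8b1 (2 of 2 in both) summed to 0 to 96.3 CPM in small intestine and 0.616 to 12.9 CPM in spleen. Their highest sum was in small intestine shMdr1 Asbt+/+, the library with the highest Fasl level, and Cd8a did not pass in edgeR. Because the control hairpin is against CD8, few CD8 T cells and knockdown cannot be told apart in shCD8 libraries. Epithelial markers (12 of 13 in both) summed to 57.9 to 713 CPM in small intestine and 22.5 to 198 CPM in spleen. Natural killer and innate lymphoid markers (7 of 8 in both) summed to 189.6 to 550.0 CPM in small intestine and 83.1 to 351 CPM in spleen.

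The binding partners of the 9 genes were mostly at or near the counting floor. Tnfrsf11b, the decoy receptor for RANKL, had no count, Tnfrsf11a, which encodes RANK, had 10 counts (Asbt-/-) and 5 counts (Asbt+/+) in the shCD8 spleen libraries and none elsewhere, and Ltbr, the lymphotoxin beta receptor, had 5 counts in all. Tnfrsf8, the receptor for CD30 ligand, had counts in 3 shCD8 libraries and in no shMdr1 library (8 or 9 counts each), and Tnfrsf14, the HVEM receptor of LIGHT, had 0 to 12. Cd40 had at most 7 counts, Tnfsf18, the GITR ligand, at most 7, and Tnfsf4, the OX40 ligand, 28 in small intestine shCD8 Asbt-/- and at most 2 elsewhere. A count of 0 allows a level of up to 1.08 to 1.78 CPM in these libraries, for counting error only. Partners that passed the filter were Fas, Tnfsf9, Tnf and Lta. Fas averaged 106 ± 30.03 CPM in small intestine and 66.1 ± 38.2 CPM in spleen and did not pass (log2 0.77 ± 0.30, edgeR adjusted p = 0.494).

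In the rest of the family the tissue values were mixed, and no gene passed in edgeR. Of 13 other ligands, 5 were tested and 4 of them lay above 0, with a median of 0.50. The largest of these were Lta (0.90 ± 0.64, adjusted p = 0.776) and Ltb (0.83 ± 0.35, adjusted p = 0.568), subunits of lymphotoxin. Tnfsf10, which encodes the death ligand TRAIL, stood at 0.50 ± 0.59 (adjusted p = 0.874). Tnf stood at 170 ± 96.6 CPM in small intestine and 114 ± 13.5 CPM in spleen (log2 0.43 ± 0.47, adjusted p = 0.864). Of 24 other receptors, 9 were tested, 4 above and 5 below 0, with a median of -0.25. Tnfrsf25, the death receptor DR3, stood at -1.02 ± 0.50 (adjusted p = 0.637), Relt at -1.13 ± 1.25 (adjusted p = 0.864) and Tnfrsf13b, the receptor TACI, at -0.86 ± 1.45 (adjusted p = 0.914).

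Of 20 genes for TRAF adaptors and NF-kB signalling, 12 lay above 0 and none passed (median 0.36). Those with the smallest p were Birc3, an inhibitor of apoptosis bound by TRAF proteins (1.05 ± 0.26, edgeR adjusted p = 0.139), Traf1 (0.96 ± 0.26, adjusted p = 0.211), Nfkb2 (1.28 ± 0.39, adjusted p = 0.297) and Tank (0.85 ± 0.27, adjusted p = 0.352). Each was higher in small intestine in 4 of 4 pairs.

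Of 16 receptors and ligands of the CD28 family and related costimulation, 14 lay above 0 (median 0.58) and 3 passed as higher in small intestine. Ctla4, an inhibitory receptor, averaged 1224 ± 315 CPM in small intestine and 349 ± 115 CPM in spleen (log2 1.84 ± 0.24, edgeR adjusted p = 0.00625). Icos, a costimulatory receptor, averaged 689.8 ± 133 CPM in small intestine and 237 ± 47.8 CPM in spleen (1.55 ± 0.23, adjusted p = 0.0131). Cd160, a further receptor for HVEM, stood at 176 ± 161 CPM in small intestine and 32.5 ± 31.7 CPM in spleen (2.48 ± 0.45, adjusted p = 0.0355). Havcr2, the inhibitory receptor TIM-3, stood at 31.2 ± 31.9 CPM in small intestine and 2.41 ± 1.91 CPM in spleen and did not pass (3.43 ± 0.89, adjusted p = 0.168). Without both small intestine Asbt+/+ libraries, the edgeR adjusted p was 0.0630 for Ctla4, 0.0977 for Icos and 0.0900 for Cd160. The tissue medians of the 9 genes, 0.72 for the 5 ligands and 1.52 for the 4 receptors, stand beside these list medians as a description.

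**Figure D3:**
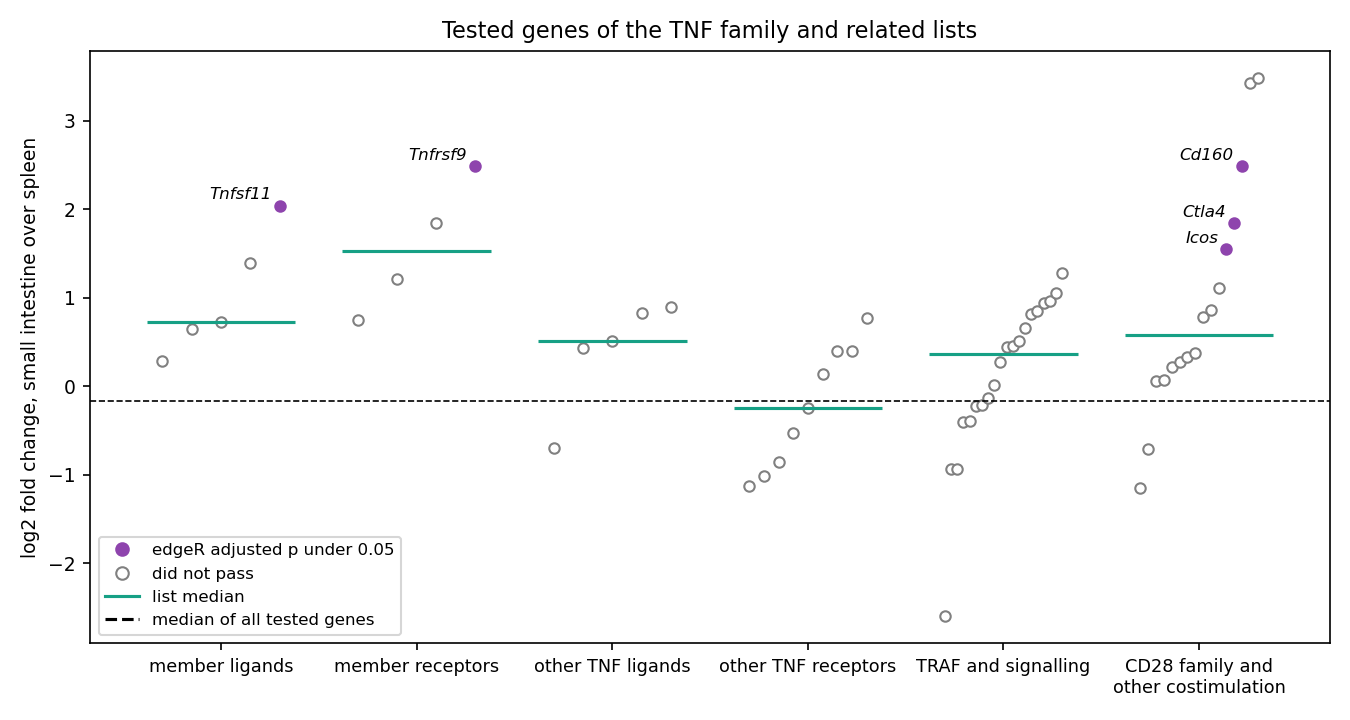
Tissue log2 fold change (small intestine over spleen) of every tested gene among the 9 genes (ligands and receptors apart) and in the lists of other TNF ligands, other TNF receptors, TRAF and NF-kB signalling and CD28-family genes, 1 point per gene, with list medians as solid lines and the median of all tested genes dashed. The medians of 0.72 for the 5 ligands and 1.52 for the 4 receptors lie above those of the other lists, which run from -0.25 to 0.58.

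The hairpin comparison asks whether these genes differed between transferred cells with the hairpin against Mdr1 and those with the control hairpin. None of the 9 passed, and no gene of the 10000 did (0% called in edgeR, with 299 genes at an unadjusted p under 0.05, 3 genes called by DESeq2 and 0 by limma-voom). Of the 9, 2 lay above 0, where 55.1% of tested genes did, and 7 below, with a median of -0.05 against 0.09 over all genes. In 0 of the 9 did the 4 shMdr1 libraries all lie above the 4 shCD8 libraries (1.45% of tested genes) or all below them (1.34%). For 6 of the 9 this could not occur, given the tissue separation seen in these libraries. Their tissues did not overlap, and each hairpin level held libraries of both tissues.

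Tnfrsf4 was the only one of the 9 that was lower with shMdr1 in all 4 pairs, as 7.36% of tested genes were. Its shMdr1 level was 0.979 of the shCD8 level in small intestine of Asbt-/- hosts, 0.524 in small intestine of Asbt+/+ hosts, 0.803 in spleen of Asbt-/- hosts and 0.408 in spleen of Asbt+/+ hosts. The fitted difference of -0.64 ± 0.27 did not pass (edgeR adjusted p = 0.999), and it stood at -0.54 without both small intestine Asbt+/+ libraries.

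Tnfsf11 and Tnfrsf9 were each lower with shMdr1 in 3 of 4 pairs, the exception being small intestine of Asbt-/- hosts. For Tnfsf11 the shMdr1 level was 1.16 times the shCD8 level there, 0.380 of it in small intestine of Asbt+/+ hosts, 0.512 in spleen of Asbt-/- hosts and 0.265 in spleen of Asbt+/+ hosts (log2 -1.03 ± 0.37, edgeR adjusted p = 0.999). For Tnfrsf9 it was 1.33 times the shCD8 level in small intestine of Asbt-/- hosts, but 0.298 of it in small intestine of Asbt+/+ hosts, 0.628 in spleen of Asbt-/- hosts and 0.404 in spleen of Asbt+/+ hosts (log2 -0.85 ± 0.38, edgeR adjusted p = 0.999). Without both small intestine Asbt+/+ libraries the values were -0.84 for Tnfsf11 and -0.48 for Tnfrsf9.

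Marker levels of other cells by hairpin stand beside these values. Foxp3 of regulatory T cells was lower with shMdr1 in all 4 pairs, with 57 counts (shMdr1) and 101 (shCD8) in the small intestine of Asbt-/- hosts, and 0 (shMdr1) and 113 (shCD8) in that of Asbt+/+ hosts. Its spleen counts were 10 (shMdr1) and 48 (shCD8) in Asbt-/- hosts, and 12 (shMdr1) and 67 (shCD8) in Asbt+/+ hosts. The 10 markers of that list summed to 569 to 1554 CPM with shMdr1 and 945 to 2382 CPM with shCD8. Of its 9 tested markers 8 lay below 0, and none passed in edgeR. Neutrophil markers lay above 0 in 7 of 7 tested (median 1.28), at 10.7 to 7572 CPM summed with shMdr1 and 40.7 to 6732 CPM with shCD8. Erythroid markers lay above 0 in 6 of 6 tested (median 1.30), and none of either list passed in edgeR. The erythroid sum was 43.2 to 41547 CPM with shMdr1, highest in spleen shMdr1 Asbt-/-, and 38.3 to 5112 CPM with shCD8. It was higher with shMdr1 in both Asbt-/- pairs. In both Asbt+/+ pairs it was lower, at 2241 against 5112 CPM in spleen and 88.6 against 106 CPM in small intestine. The part of these cells in the values of Tnfrsf4, Tnfsf11 and Tnfrsf9 was not tested.

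Tnfsf14 split by tissue. Its shMdr1 level was 1.98 times the shCD8 level in small intestine of Asbt-/- hosts and 18.1 times in small intestine of Asbt+/+ hosts (122 against 11 counts), but 0.465 of it in spleen of Asbt-/- hosts and 0.720 in spleen of Asbt+/+ hosts. The test of the difference between tissues did not pass (interaction log2 2.91 ± 1.15, edgeR adjusted p = 1). The remaining 5 genes, Tnfsf8, Cd40lg, Fasl, Tnfrsf18 and Tnfrsf1b, had fitted values between -0.18 and 0.18, with pairs in both directions. Of 16 CD28-family genes, 14 also lay below 0 (median -0.35), and none passed in edgeR.

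**Figure D4:**
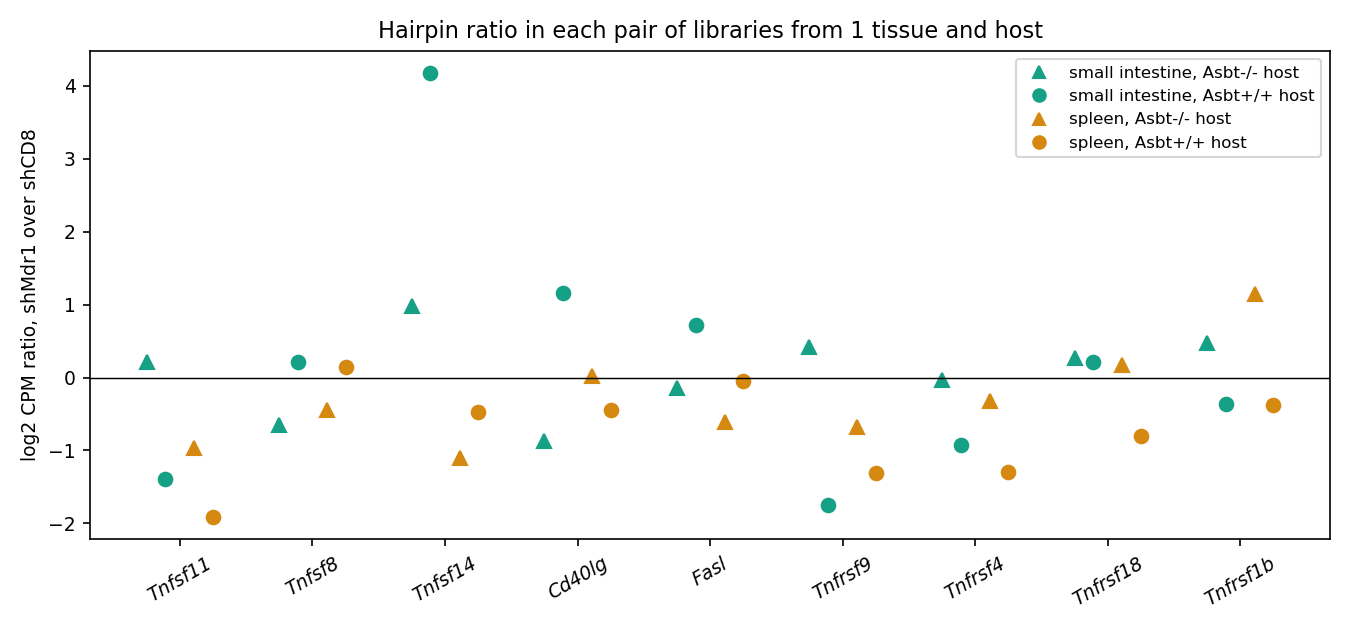
The log2 ratio of CPM in shMdr1 over shCD8 cells for each of the 9 genes, 1 point for each of the 4 matched pairs, coloured by tissue and shaped by host. Tnfrsf4 lies below 0 in 4 of 4 pairs, and Tnfsf14 lies above 0 in both small intestine pairs and below 0 in both spleen pairs.

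The host comparison asks whether hosts without Asbt, and hence with altered bile acid uptake in the ileum, held cells that differed in these genes. None of the 9 passed, nor did any of the 10000 genes (0% called in edgeR, with 271 at an unadjusted p under 0.05, 6 called by DESeq2 and 0 by limma-voom). Of the 9, 5 lay above 0, as did 57.3% of tested genes. In 0 of the 9 did the Asbt-/- libraries all lie above the Asbt+/+ libraries (1.78% of tested genes) or all below them (0.93%). For the 6 genes whose tissues did not overlap this could not occur, because each host level held libraries of both tissues. The ligands had a median of 0.55, with 4 of 5 above 0, and the receptors one of -0.30, with 1 of 4 above 0, against 0.11 over all genes.

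Tnfsf8 was the only one of the 9 that was higher in Asbt-/- hosts in all 4 pairs, as 8.5% of tested genes were. In small intestine the ratio of Asbt-/- to Asbt+/+ hosts was 1.09 with shMdr1 and 1.98 with shCD8, and in spleen it was 1.28 with shMdr1 and 1.91 with shCD8. Levels averaged 746 ± 253 CPM in Asbt-/- hosts and 487 ± 136 CPM in Asbt+/+ hosts, overlapping, and the difference did not pass (log2 0.60 ± 0.25, edgeR adjusted p = 0.996). Without both small intestine Asbt+/+ libraries, where it compares the hosts in spleen only, it stood at 0.63.

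Cd40lg averaged 241 ± 101 CPM in Asbt-/- hosts and 155 ± 74.3 CPM in Asbt+/+ hosts and was higher in 3 of 4 pairs (log2 0.63 ± 0.32, edgeR adjusted p = 0.996). Fasl averaged 53.0 ± 21.8 CPM in Asbt-/- hosts and 90.1 ± 63.1 CPM in Asbt+/+ hosts and was lower in 3 of 4 pairs (-0.61 ± 0.33, adjusted p = 0.996). Tnfrsf9 was also lower in 3 of 4 pairs (-0.73 ± 0.38), as was Tnfrsf1b (-0.56 ± 0.37). Without both small intestine Asbt+/+ libraries, and so in spleen only, Fasl stood at -0.25 and Tnfrsf1b at -1.04. Markers of 2 other cell types lay below 0 throughout, 11 of 11 tested epithelial markers (22.5 to 65.0 CPM summed in Asbt-/- and 66.6 to 713 CPM in Asbt+/+ hosts) and 7 of 7 neutrophil markers (10.7 to 3014 CPM in Asbt-/- and 111 to 7572 CPM in Asbt+/+ hosts). Their part in these values was not tested.

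Interactions between the factors were tested in 3 further fits, and none passed for any gene (0% called in edgeR). The number of genes at an unadjusted p under 0.05 was 169 for tissue by hairpin, 594 for tissue by host and 119 for hairpin by host, and DESeq2 called 0, 33 and 0 genes. For Tnfrsf9 the hairpin difference was 1.43 ± 0.67 higher on the log2 scale in Asbt-/- than in Asbt+/+ hosts (edgeR adjusted p = 1), and for Tnfsf11 1.13 ± 0.67 higher (adjusted p = 1). In the 2 Asbt+/+ pairs, shMdr1 cells held 0.265 to 0.404 of the shCD8 level of these genes. These pairs include the small intestine pair in which Abcb1a was not lower with shMdr1. The interactions were not refitted without both of its libraries.

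Genes with the pattern most like each of the 9 over the 8 libraries were sought among 6648 tested genes with a mean of at least 10 CPM, by Pearson correlation of log2 CPM. Since the libraries share their tissue, these values describe likeness and carry no test. For the ligands they were Zfp180 (r = 0.961) for Tnfsf11, Pde4b (0.969) for Tnfsf8, Stam (0.986) for Tnfsf14, Tnip1 (0.976) for Cd40lg and Ostf1 (0.978) for Fasl. For the receptors they were Btg3 (0.991) for Tnfrsf9, Tmem64 (0.971) for Tnfrsf4, Prkaca (0.954) for Tnfrsf18 and Pkm (0.966) for Tnfrsf1b. The second in rank were Wnk1, Vamp4, Ubxn7, Homer1 and Uck2 for the ligands and H2-DMa, Cox14, Lpxn and Prkar1a for the receptors, in the same order, with r between 0.929 and 0.978. On GRCm38, the 4 receptors and Tnfsf8 lie on chromosome 4, and the other ligands on chromosomes 14, 17, X and 1.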

How the data were processed

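The authors deposited a table of whole-number read counts, with genes in rows and libraries in columns. SMART-Seq v4 cDNA, which carries no molecular identifiers, was made into libraries with a NEBNext kit, per the labels' protocols. The submitters' processing notes name TopHat, HTSeq, DESeq2 and the build mm9, but versions, annotation and strand setting were not given in the sources used here. The 9 genes and all gene lists were chosen with earlier results of these data known.

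Counts were filtered with filterByExpr (10000 genes, 99.52% of counts), scaled by TMM and fitted in edgeR 4.0.16 (R 4.3.3) with tissue, hairpin and host as additive terms, which left 4 residual degrees of freedom; each interaction left 3. Quasi-likelihood p-values were Benjamini-Hochberg adjusted over all tested genes at 0.05. The SE of a log2 fold change was approximated as its size over the root of the F statistic. The script was checked on simulated data for the tissue comparison. It called 40.82% of genes changed 4-fold and 87.25% of those changed 16-fold in the right direction. A difference of 4-fold or less that did not pass may therefore still be real. Exon lengths came from GENCODE vM21 and promoters from RefSeq on GRCm38.p6; no mm9 coordinates were used.

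Beside the 9 genes, the text names their binding partners, the genes of each list past the threshold or among its 4 smallest p in the tissue comparison, the marker genes quoted, and the 2 genes most like each of the 9. Alternatives tried were the DESeq2 1.42.0 Wald test, its size factors in edgeR, no low-count filter, limma 3.58.1 voom with and without quality weights, no covariates, a matched library pair block, removal of hemoglobin, mitochondrial and Rn18s-rs5 counts, and leaving out libraries. Library sizes from 12 CD4 T cell markers were added after seeing the data.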

Additional observations from a re-analysis of the deposited data

Results flagged for a closer look

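Within a tissue, 18 groups of 4 libraries (9 genes in 2 tissues) were checked for a library far from the other 3, and 2 were marked (11.1%). The cut-off marks about 1 in 20 groups of like replicates. These groups mix hairpins and hosts and share libraries, so that rate is no measure of chance here. Tnfrsf9 stood at 263 CPM in small intestine shCD8 Asbt+/+, and the gap to the next library took 0.884 of the range of the 4 small intestine libraries. That library also had the fewest detected genes. Fasl stood at 27.7 CPM in spleen shMdr1 Asbt-/-, below the other 3 spleen libraries, with a gap of 0.878 of their range. That library had the highest erythroid marker sum, 41547 CPM.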

How the results depend on the processing

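The tissue comparison called 62 genes in edgeR, 165 with no filter on low counts, 257 with DESeq2, 116 with voom quality weights, 39 without both small intestine Asbt+/+ libraries, 22 with CD4 T cell marker library sizes (chosen after seeing the data), and 11 (without small intestine shMdr1 Asbt+/+) to 137 (without small intestine shCD8 Asbt+/+) when single libraries were left out. The hairpin comparison called 9 with no filter, 3 with DESeq2 and 2 with quality weights. The host comparison called 14 with no filter, 6 with DESeq2, 6 with quality weights and 0 to 4 with a library left out (4 without small intestine shCD8 Asbt+/+). Tissue by hairpin called 4 with no filter and 0 to 678 with a library left out (678 without small intestine shCD8 Asbt-/-). Tissue by host called 25 with no filter, 33 with DESeq2 and 0 to 1294 (1294 without small intestine shMdr1 Asbt+/+). Hairpin by host called 3 with no filter and 0 to 770 (770 without spleen shCD8 Asbt+/+). In these 3 fits Tnfsf14 was called, at 4.85, 3.47 and -4.01 (edgeR adjusted p = 0.0192, 0.0488 and 0.0359); with 7 libraries, each rests on a combination with no library, and the cause was not tested.

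For the 9 genes, 134 of 162 tissue values kept direction and side of the threshold, 17 lost and 8 gained a call and 3 reversed. Over the 8 fits with 1 library left out, Tnfsf11 ran from 1.71 to 2.42 (edgeR adjusted p 0.0121 to 0.207) and Tnfrsf9 from 2.14 to 2.76 (0.0127 to 0.113), each past the threshold in 2 of 8. Over the 10 other alternatives Tnfsf11 passed in 7 and Tnfrsf9 in 8; with no covariates Tnfsf11 had an adjusted p of 0.0816. Reversed values of other genes in the tissue comparison were Tnfrsf13b at 0.0399 (voom), 0.17 (no covariates) and 1.35 (without both small intestine Asbt+/+ libraries), and without those libraries Ltb at -0.0205 and Tnfsf9 at 0.0051. Of 162 hairpin values 20 reversed, among them Fasl at 0.10 (voom), 0.22 (no covariates) and 3.71e-04 (without hemoglobin, mitochondrial and Rn18s-rs5 counts), Tnfsf14 at -0.0464 (quality weights) and -0.17 (without both), Tnfrsf18 at 0.016 (no covariates) and Tnfrsf1b at -0.13 (T cell marker sizes). Of 162 host values 10 reversed, among them Tnfsf11 at -0.15 (voom) and -0.31 (no covariates) and Tnfrsf18 at 0.0012 (no covariates) and 0.22 (T cell marker sizes). For tissue by host Cd40lg stood at -0.0495 with DESeq2 size factors and -0.0499 with DESeq2. T cell marker sizes moved the median of all genes by -0.30 for tissue, -0.28 for hairpin and 0.26 for host.

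With a library left out, ranges that crossed 0 were, for tissue, Tnfsf14 -0.47 to 1.01, Tnf -0.11 to 0.92 and Tnfrsf13b -2.17 to 0.27. For hairpin they were Tnfsf14 -0.12 to 1.41, Cd40lg -0.36 to 0.20, Fasl -0.29 to 0.22, Tnfrsf18 -0.18 to 0.20 and Tnfrsf1b -0.12 to 0.46. For host they were Tnfsf11 -0.18 to 0.56, Tnfsf14 -0.0123 to 1.38, Tnfrsf4 -0.0063 to 0.35 and Tnfrsf18 -0.18 to 0.21. For tissue by hairpin they were Tnfsf11 -0.0326 to 1.69, Tnfsf8 -0.40 to 0.23, Cd40lg -0.35 to 1.07, Tnfrsf9 -0.43 to 1.20, Tnfrsf4 -0.0729 to 0.69 and Tnfrsf1b -1.13 to 0.50. For tissue by host they were Tnfsf8 -0.41 to 0.21, Tnfsf14 -0.87 to 3.47, Cd40lg -0.71 to 0.87, Tnfrsf9 -1.13 to 0.55, Tnfrsf4 -0.28 to 0.59 and Tnfrsf18 -0.10 to 0.92. For hairpin by host it was Tnfsf14, -4.01 to 0.0502. Counting intervals cover counting error only, and with 1 library per combination the spread between animals is unknown.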
